A study of Mus musculus with 4 samples.

Results

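The transcription factor p53, its relatives p63 and p73, and the genes that feed back on p53 were followed on arrays of mouse neural stem/progenitor cells (NSPCs) treated with PJ34, an inhibitor of poly(ADP-ribose) polymerase (PARP). The group holds 8 of the 36499 gene or transcript names on the array. *Trp53*, *Trp63* and *Trp73* encode the 3 members of the p53 family, and *Mdm2*, *Mdm4*, *Ccng1*, *Ppm1d* and *Rchy1* encode regulators of p53. Every probe that the array's own annotation assigns to 1 of these genes was taken, which gave 14 of 55681 probes. Of these, 9 passed the filter on dim probes, which kept a probe if, in 1 genotype or in both, each array had a signal clearly over background in Cy3 or Cy5. The filter kept 27035 probes in all.

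NSPCs were prepared from embryos at embryonic day 13.5 and grown in a medium with EGF and FGF. The paper names the Slc:ICR strain as their source. Wild-type cells and cells homozygous for a *Trp53* null allele (Trp53-/-, from mice of the RIKEN BioResource Center) were grown with or without 20 μM PJ34. The sources used here do not give the time of treatment for the arrays. The strain background of the *Trp53* mutant mice is not given either. In comparisons between the genotypes, *Trp53* and a possible difference of strain therefore cannot be told apart. Each of 4 arrays compared treated cells, labelled with Cy5, with untreated cells of the same genotype, labelled with Cy3, and each genotype had 2 arrays (n = 2) from RNA prepared independently. No array had the opposite dye order, so the effect of PJ34 and a dye bias of a probe cannot be told apart in either genotype, whereas such a bias is shared by both genotypes in the difference between them.

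Between 21503 and 24536 probes were well above background in the control channel and between 26075 and 27154 in the PJ34 channel, and no spot was saturated. All 7 markers of neural progenitors were well above background in the control channel of all 4 arrays. The markers of fibroblasts were above background on none of them, and of the 4 markers of Cajal-Retzius neurons, a cell type known for p73, *Reln*, *Calb2* and *Lhx5* were not either, whereas *Lhx1* was above it on 1 array. Of the 4 markers of basal epithelium, a tissue known for p63, none was above background on all 4 arrays, and *Krt15* and *Cdh3* were above it on none. The array Trp53-/- replicate 2 stood apart in sex-linked genes. The log2 ratio of PJ34 over control was 4.22 for *Eif2s3y* and 3.12 for *Ddx3y* there, against at most 0.84 and 0.18 on the other arrays. For *Xist* it was -1.39, against -0.05 to 0.53 on the others. On this array, the effect of PJ34 and a difference between the channels in the sex of the embryos cannot be told apart. For this reason, calls of members and of named regulators and targets that were lost without this array are marked beside the result. The relatives of the members and the markers of cell types were not all followed in this way.

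p53 is kept scarce in unstressed cells because Mdm2, a ubiquitin ligase whose gene p53 itself switches on, marks it for degradation. Mdm4 resembles Mdm2, binds the transactivation domain of p53 and has little ligase activity of its own. Rchy1, also called Pirh2, is another ubiquitin ligase that p53 induces and that acts on p53. *Ppm1d* encodes Wip1, a phosphatase that removes phosphates from p53 and from the kinases that activate it. *Ccng1* encodes cyclin G1, which recruits protein phosphatase 2A to Mdm2. Each of these regulators can close a loop that lowers p53 again after a stress. In the nervous system p73 is known for the Cajal-Retzius neurons of the developing cortex, and p63 for stratified epithelia.

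The probes that decide how far the family itself can be read are shown with their sequences, 5′ to 3′ as the files give them. The only *Trp53* probe lies on chromosome 11 at 69404204 to 69404263 (mm9, plus strand), in the part of the coding sequence for the carboxy-terminal end of p53, and was spotted 2 times. For *Trp63*, the only probe well above background holds a run of 6 CAG triplets, set in capitals, and lies in the coding sequence on chromosome 16 at 25871159 to 25871218. For *Trp73*, the probe at the end of the coding sequence on chromosome 4 at 153433098 to 153433157 (minus strand) is printed, with the 5 bases in capitals that it shares with the next probe downstream.
Trp53 probe A_55_P1968068: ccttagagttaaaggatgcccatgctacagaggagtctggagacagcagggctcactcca
Trp63 probe A_55_P2161055: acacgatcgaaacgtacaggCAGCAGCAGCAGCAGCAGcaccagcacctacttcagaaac
Trp73 probe A_55_P1988133: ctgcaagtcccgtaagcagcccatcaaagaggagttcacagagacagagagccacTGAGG

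The promoters of 7 of the 8 genes were found in the RefSeq promoter table of GRCm38.p6 (10 promoters of 300 bases, from 250 before to 50 after the start), and *Trp63* was not in it. The consensus of the p53 response element is a decamer that reads the same on both strands, and a full element is 2 such decamers. An exact decamer stood in 5 of the 10 promoters, those of *Trp53*, *Mdm2*, *Ccng1*, *Ppm1d* and 1 of the 2 of *Rchy1*, and in 8.36% of all 32851 promoters. Adjacent decamers with the central C and G of each intact and at most 2 mismatches in the 20 bases were found in 0.326% of all promoters, and among the members in *Ccng1* and in 1 of the 2 promoters of *Trp73*. The exact decamer of *Ccng1* is the second of its pair. Both stretches are printed because they are the longest matches among the members, with the 20 bases in capitals.
Ccng1 promoter, chr11:40755412-40755531, minus strand, 1 mismatch: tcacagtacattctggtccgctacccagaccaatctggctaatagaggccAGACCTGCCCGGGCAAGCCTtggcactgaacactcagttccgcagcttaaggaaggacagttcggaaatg
Trp73 promoter, chr4:154097174-154097289, minus strand, 2 mismatches: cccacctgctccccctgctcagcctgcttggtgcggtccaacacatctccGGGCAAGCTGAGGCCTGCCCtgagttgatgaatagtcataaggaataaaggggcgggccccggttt
The match of *Ccng1* ran from 195 to 176 bases before the start, and that of *Trp73* from 66 to 47 bases before it. These matches describe letters, and no binding was measured on these arrays. Bases outside the 300 of each promoter were not searched, so a gene without a match here may hold one elsewhere.

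In wild-type NSPCs, PJ34 raised 4 of the 9 member probes and lowered none. The 4 were those of *Ccng1*, *Mdm2*, *Rchy1* and *Ppm1d*, all of them regulators, and none of the 3 family genes was among them. *Ccng1* and *Mdm2* more than doubled. A probe was taken to have risen or fallen with p and Storey's q below 0.05 in limma over all kept probes, and by this rule 12.3% of all kept probes rose and 10.4% fell. With a change of more than 2-fold as a further condition, 2 of the 9 member probes rose, against 0.263% of all kept probes that rose and 0.174% that fell. The median log2 ratio was 0.13 over the 9 member probes and 0.03 over all kept probes. In RNA of whole cultures, fewer cells that express a gene and less of its RNA per cell cannot be told apart.

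In Trp53-/- NSPCs, 1 of the 9 member probes rose, that of *Ppm1d*, and none fell. None changed more than 2-fold. Of all kept probes 12.0% rose and 9.68% fell, and 0.0703% and 0.248% did so by more than 2-fold. The median over the member probes was -0.07. Without Trp53-/- replicate 2 no member probe passed in this genotype, and the log2 ratio of *Ppm1d* was then 0.39 with q = 0.0929.

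The responses of the genotypes differed for 2 of the 9 member probes, *Ccng1* and *Mdm2*, both with the larger response in wild-type cells and both by more than 2-fold. Among all kept probes, 1.11% had a larger and 0.355% a smaller log2 ratio in wild-type cells, and 0.399% and 0.0222% did so by more than 2-fold. The other 7 did not pass this test, *Rchy1* among them. Without Trp53-/- replicate 2 the same 2 probes passed.

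**Figure D1:**
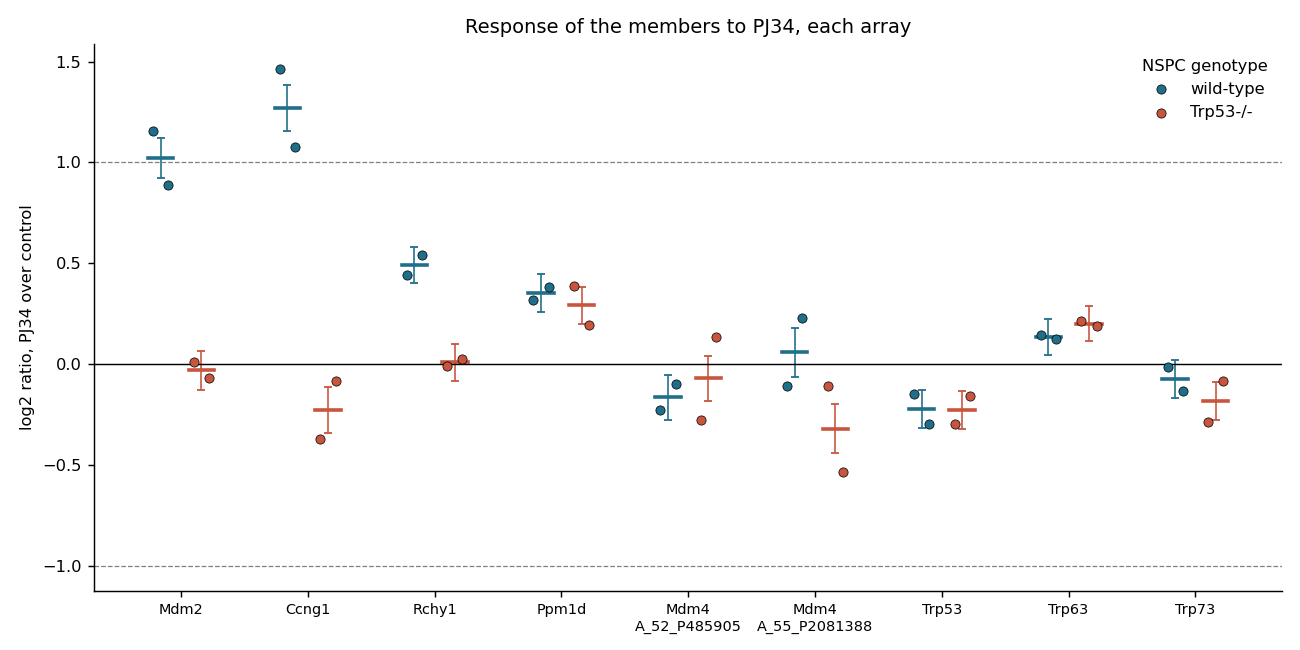
Log2 ratio of PJ34 over control (y axis) for the 9 member probes kept by the filter (x axis) in wild-type (blue) and Trp53-/- (red) NSPCs. Points are single arrays, bars their mean, error bars the standard error of limma, and dashed lines mark a 2-fold change. *Mdm2* and *Ccng1* stand at 0.89 to 1.46 on the wild-type arrays and at -0.37 to 0.01 on the Trp53-/- arrays, whereas the points of *Ppm1d* overlap.

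*Ccng1* was read from 1 probe on chromosome 11 at 40562427 to 40562486. Its log2 ratios were 1.46 and 1.08 on the wild-type arrays and -0.37 and -0.08 on the Trp53-/- arrays, so the genotypes did not overlap. The mean change in wild-type cells was 2.41-fold, with a log2 ratio of 1.27 ± 0.12 (standard error of limma) and q = 1e-04. The Trp53-/- mean was -0.23, with a 95% confidence interval from -0.48 to 0.03 and q = 0.108. The difference between the genotypes was 1.50 ± 0.16 with q = 0.00204. Without Trp53-/- replicate 2 it was 1.64. Among all 27035 kept probes this difference ranked 42nd from the top. With the scanner software's own log ratios the difference was 1.60 and its q rose to 0.263, and with an offset of 16 in the background correction it was 1.54 with q = 0.0535.

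*Mdm2*, read from 1 probe on chromosome 10 at 117126010 to 117126069, gave 1.16 and 0.89 on the wild-type arrays. On the Trp53-/- arrays they were 0.01 and -0.07, which lie on both sides of 0. The wild-type mean of 1.02 ± 0.10 was a change of 2.03-fold with q = 0.00014, just past the 2-fold limit, and the second wild-type array by itself did not reach that limit. The mean in Trp53-/- cells was -0.03, with an interval from -0.25 to 0.19. The difference was 1.05 ± 0.14, with an interval from 0.75 to 1.36 and q = 0.00575, and 1.01 without Trp53-/- replicate 2. As for *Ccng1*, the size of the difference was similar under both of these settings, 1.07 and 1.06, while q rose to 0.263 and 0.0906.

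*Rchy1* rose less. Its log2 ratios were 0.44 and 0.54 in wild-type cells against -0.01 and 0.02 in Trp53-/- cells, which again did not overlap. The wild-type mean was 0.49 ± 0.09 (1.41-fold, q = 0.00252) and the Trp53-/- mean 0.01 with an interval from -0.19 to 0.21. The difference of 0.48 had an interval from 0.20 to 0.76 but q = 0.0851, so it did not pass over all kept probes. Its probe lies on chromosome 5 at 92378571 to 92378630.

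*Ppm1d* was the member that rose in both genotypes, although its rise in Trp53-/- cells passed under only 11 of 18 alternative settings. That rise did not pass with either Trp53-/- array left out, at 0.20 without replicate 1 and 0.39 without replicate 2. The log2 ratios were 0.32 and 0.38 in wild-type cells and 0.39 and 0.20 in Trp53-/- cells, and the points of the genotypes overlapped. The means were 0.35 (1.28-fold, q = 0.0148) and 0.29 (1.22-fold, q = 0.0317). The difference was 0.06, with an interval from -0.23 to 0.35, so a difference in either direction of up to about 0.23 on the log2 scale is within it. Its wild-type rise did not pass with either wild-type array left out, with q = 0.0702 without replicate 1 and q = 0.12 without replicate 2.

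*Mdm4*, the binding partner of Mdm2, was read from 2 probes on chromosome 1, and neither passed in any comparison. The first (A_52_P485905, at 134888407 to 134888466) gave -0.23 and -0.10 on the wild-type arrays and -0.28 and 0.14 in Trp53-/- cells. It was dim, and its control channel was well above background on 1 of the 2 Trp53-/- arrays. The second (A_55_P2081388, at 134886426 to 134886485) had -0.11 and 0.23 in wild-type cells and -0.11 and -0.53 in Trp53-/- cells. Its mean of -0.32 in Trp53-/- cells had q = 0.0527, and it passed under 7 of 18 alternative settings, whereas the mean of the first probe was -0.07. The 2 probes thus gave unequal values for 1 gene, and on both the arrays of a genotype lay far apart relative to their mean.

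For *Trp53* itself the log2 ratios were -0.15 and -0.30 in wild-type cells and -0.30 and -0.16 in Trp53-/- cells. The means of -0.22 (interval from -0.43 to -0.01, q = 0.0704) and -0.23 (q = 0.0663) did not pass over all kept probes, and they differed by 0.01 with an interval from -0.29 to 0.30. *Mdm2* and *Ccng1* thus rose on wild-type arrays where the *Trp53* probe was slightly below the control. The probe was well above background in both channels of all 4 arrays, those of Trp53-/- cells included. Which part of the gene the null allele lacks is not given in the sources used here, so this probe cannot be taken as a check of the genotype.

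Most probes of the other family genes detected no signal. Of 4 *Trp63* probes, 3 were not well above background in any channel of any array, including the probe farthest downstream (chromosome 16, 25892012 to 25892071). The fourth, the CAG-rich probe printed above, was well above background in all 8 channels. Its log2 ratios were 0.14 and 0.12 in wild-type and 0.21 and 0.19 in Trp53-/- cells, with means of 0.13 (q = 0.178) and 0.20 (q = 0.0783). Only 3 of the 55681 probes hold a run of at least 6 CAG triplets, and the CAG-rich *Trp63* probe is among them. The control channel was well above background for all 3 on all 4 arrays, against 35.4% of all probes. The limit of 6 triplets equals the run of the *Trp63* probe itself, which was already known to be above background. This count therefore cannot show whether such a run goes with a signal. Whether the CAG-rich probe reads *Trp63* or other transcripts with such a run was not tested.

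The 3 *Trp73* probes were alike in this. The one in the coding sequence printed above did not exceed background clearly in any channel, nor did the one farthest downstream (153430443 to 153430502). The one in between (A_52_P410636, 153433043 to 153433102), which overlaps the first by 5 bases, was well above background in all 8 channels. It gave log2 ratios of -0.02 and -0.13 in wild-type and -0.28 and -0.08 in Trp53-/- cells, and neither mean passed (q = 0.331 and q = 0.111). Neither p63 nor p73 thus had a probe whose response to PJ34 passed the test.

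Levels in untreated cells were compared over the control channels, on the log2 scale after normalization between arrays. In these cells 1 of the 9 member probes differed between the genotypes, that of *Ccng1*, which was higher in wild-type cells by more than 2-fold. Among all kept probes, 2.91% were higher and 3.13% lower in wild-type cells, and 1.65% and 1.67% were so by more than 2-fold. Of the 9 member probes 7 had a higher mean in wild-type cells, against 48.7% of all kept probes. The median difference was 0.50 over the 9 member probes and -0.01 over all kept probes.

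**Figure D2:**
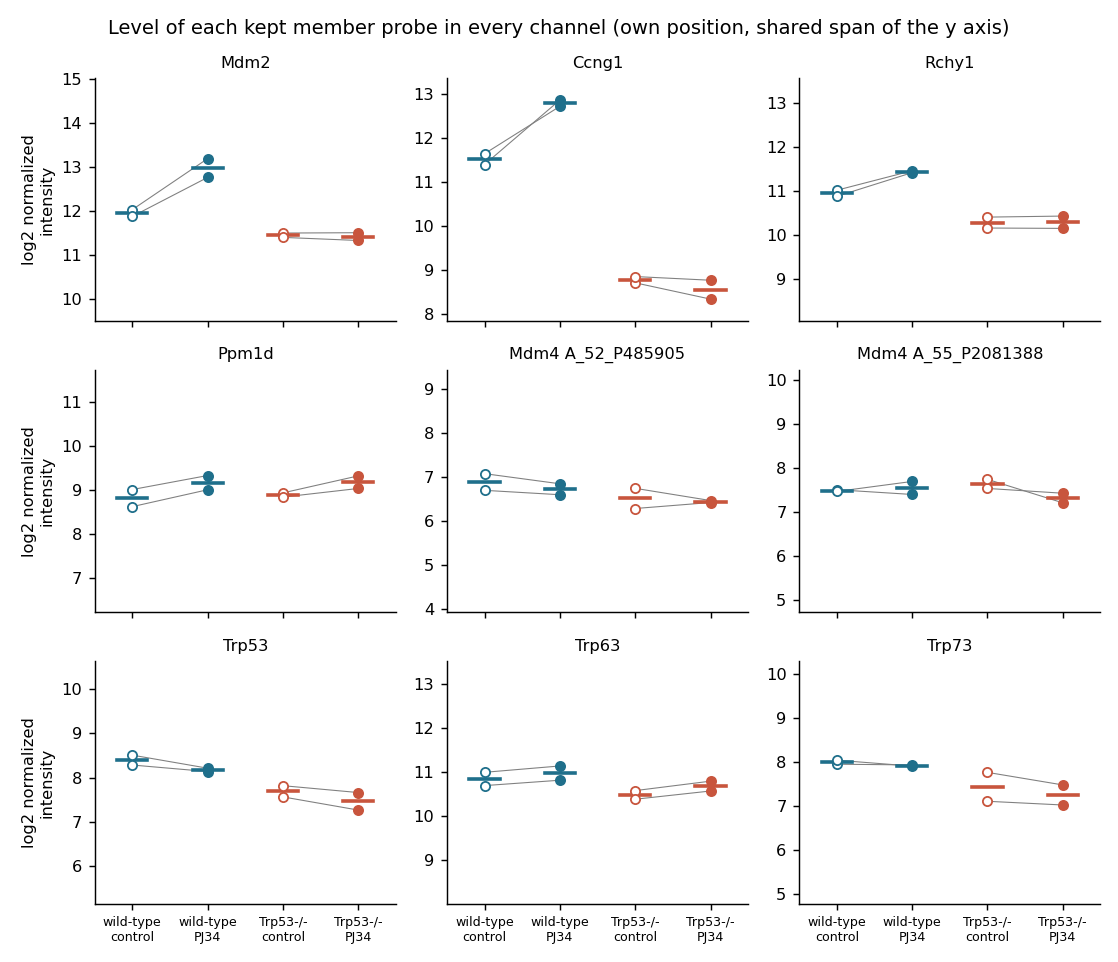
Log2 normalized intensity (y axis) of each kept member probe in the control (open) and PJ34 (filled) channels of wild-type (blue) and Trp53-/- (red) NSPCs, with grey lines joining the channels of 1 array and bars at the means. Every panel spans the same range, but the position of a panel's axis is its own, since levels of different probes are not comparable. *Ccng1* is at 11.40 and 11.64 in untreated wild-type cells and at 8.71 and 8.85 in untreated Trp53-/- cells.

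The untreated level of *Ccng1* was 11.40 and 11.64 in wild-type and 8.71 and 8.85 in Trp53-/- cells. Untreated wild-type cells therefore lay well above Trp53-/- cells before any PJ34 was given, by 2.74 ± 0.18 on the log2 scale, or 6.67-fold, with q = 0.00745. With PJ34 the levels were 12.86 and 12.72 in wild-type and 8.34 and 8.77 in Trp53-/- cells. Without Trp53-/- replicate 1 or 2 the difference in untreated cells was 2.67 or 2.81, but q was then 0.119 or 0.163, and no probe of all those kept passed 2-fold and q. With a wild-type array left out, the q of *Ccng1* stayed below 0.05.

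For the other members the untreated difference did not pass. The *Trp53* probe was at 8.28 and 8.51 in wild-type and at 7.56 and 7.82 in Trp53-/- cells, a difference of 0.71 (1.63-fold, q = 0.0585). *Rchy1* was at 11.02 and 10.88 against 10.16 and 10.41, a difference of 0.66 with q = 0.0613. For *Mdm2* the levels were 12.04 and 11.88 against 11.51 and 11.41, a difference of 0.50 with q = 0.0897. For these 3 genes the untreated arrays of the genotypes did not overlap. The same held for the kept *Trp63* and *Trp73* probes and for *Mdm4* A_55_P2081388, the last of which was lower in wild-type cells. The share of all kept probes without overlap was not counted, neither here nor for the responses to PJ34. No result is therefore drawn from a lack of overlap. With the replicate number as a block, *Trp53* and *Rchy1* passed (q = 0.0325 and q = 0.0477).

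*Ppm1d* was at 9.01 and 8.63 in untreated wild-type and at 8.94 and 8.84 in untreated Trp53-/- cells, which overlapped. The untreated differences of the 2 *Mdm4* probes, 0.37 and -0.15, had opposite signs. Those of the *Trp63* and *Trp73* probes above background were 0.36 (q = 0.183) and 0.56 (q = 0.144). In the same untreated cells, the summed intensity of 4 markers of astrocytes was 1290 to 2930 in wild-type and 2620 to 2730 in Trp53-/- cells, and that of 7 markers of neural progenitors 126000 to 163000 and 132000. For 5 markers of neurons it was 4210 to 6740 and 4370 to 4930. Of the 4 markers of microglia *Csf1r* was kept, at 1230 to 1580 and 702 to 889, and the 2 kept markers of endothelium summed to 7980 to 8400 and 3100 to 3480. *Aif1*, *Cx3cr1* and *Ptprc* of microglia, and *Pecam1*, *Cldn5* and *Cdh5* of endothelium, were not well above background in any control channel. Differences of single markers need not show in these sums. As log2 differences, wild-type minus Trp53-/-, *Gfap* had -2.38 (q = 0.0146) and *S100b* -1.89 (q = 0.0111). The other astrocyte markers, *Aqp4* (-0.66, q = 0.0516) and *Aldh1l1* (0.58, q = 0.29), did not pass. Of the 5 neuron markers *Rbfox3* passed (-1.24, q = 0.0195) and 1 was higher in wild-type cells. Of the 7 progenitor markers *Msi1* passed (0.96, q = 0.0299), and of the 2 kept endothelium markers *Kdr* did (1.34, q = 0.0159). With either Trp53-/- array left out, *Gfap*, *S100b*, *Rbfox3* and *Kdr* no longer passed. The part of other cell types in the untreated levels of the members was not tested.

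Ordered by the size of the wild-type response, *Ccng1* came first, followed by *Mdm2*, *Rchy1* and *Ppm1d*. The intervals of neighbours in this order overlapped for *Ccng1* (1.01 to 1.53) and *Mdm2* (0.80 to 1.24), and for *Rchy1* (0.29 to 0.69) and *Ppm1d* (0.14 to 0.56), but not between *Mdm2* and *Rchy1*.

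The genes with the pattern most like a member were sought among 20226 other genes, each read from its brightest kept probe, by the Euclidean distance over the 4 log2 ratios. Nearest to *Mdm2* were *Grhl3*, *Rarg* and *Trim11*, at distances of 0.157, 0.209 and 0.228. *Ccng1* had no neighbour as close. The nearest were *Bbc3*, the gene of the proapoptotic protein PUMA, at 0.35, *Celf5* at 0.36 and *Etnk2* at 0.367. *Bbc3* was at 1.63 and 1.25 on the log2 scale in wild-type and -0.12 and -0.02 in Trp53-/- cells. The 3 probes nearest to *Trp53* carry no gene symbol in the sources used here and lay at 0.0434 to 0.0516.

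Around the feedback genes, 44 further genes that act on p53 were listed, among them its kinases, acetylases, deubiquitinases and inhibitors. All had a kept probe, and each was read from its brightest. In wild-type cells, where 12.3% of all kept probes rose and 10.4% fell, 4 of the 44 rose and 8 fell. None changed by more than 2-fold, and the median log2 ratio was 0.00 against 0.03 over all genes. The largest rise was that of *Usp2*, the gene of a deubiquitinase of Mdm2, with log2 ratios of 1.11 and 0.62 (mean 0.87, q = 6e-04). *Ppp1r13b*, which encodes the p53 cofactor ASPP1, had 0.56 (q = 0.00248), and *Mkrn1*, a ubiquitin ligase gene, 0.35 (q = 0.0146). The largest decreases were those of the methyltransferase gene *Smyd2* (-0.41), *Cdkn2a* (-0.39) and *Gnl3*, the gene of nucleostemin (-0.38). Without wild-type replicate 1, 2 regulators rose and 2 fell, and *Mkrn1* (0.26, q = 0.18), *Smyd2* (-0.32, q = 0.116) and *Gnl3* (-0.20, q = 0.275) no longer passed. Without wild-type replicate 2, 3 rose and 3 fell, and *Cdkn2a* (-0.30, q = 0.128) did not pass.

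In Trp53-/- cells, where 12.0% of all kept probes rose and 9.68% fell, 7 of the 44 rose and 2 fell, with a median of 0.10. The 3 largest rises were those of *Huwe1*, which encodes a ubiquitin ligase of p53, with 0.62 (q = 0.0015), and of the kinase genes *Prkdc* with 0.56 (q = 0.0019) and *Atm* with 0.48 (q = 0.00382). The 2 that fell were *Cdkn2a* (-0.40, q = 0.00899) and *Smyd2* (-0.26, q = 0.0431). Without Trp53-/- replicate 2, 5 rose and none fell, since q was 0.0838 for *Cdkn2a* and 0.222 for *Smyd2*. Without Trp53-/- replicate 1, 3 rose and 1 fell, and *Cdkn2a* (q = 0.0627) and *Smyd2* (q = 0.199) did not pass either. These directions depend on the normalization within arrays: with median centring, 32 regulators rose in wild-type and 41 in Trp53-/- cells, and none fell in either.

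The response differed between the genotypes for 2 of the 44. Of all kept probes, 1.11% had a larger and 0.355% a smaller log2 ratio in wild-type cells. *Usp2* was at 1.11 and 0.62 on the log2 scale in wild-type and 0.16 and -0.05 in Trp53-/- cells, a difference of 0.81 with q = 0.0426. *Atm* went the other way, with -0.15 and -0.07 in wild-type and 0.54 and 0.42 in Trp53-/- cells, a difference of -0.59 with q = 0.0473. Neither passed without Trp53-/- replicate 2 (q = 0.0853 for *Usp2* and q = 0.0695 for *Atm*). *Usp2* did not pass without wild-type replicate 1 either (0.56, q = 0.111), and *Atm* did not pass with any 1 of the 4 arrays left out.

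In untreated cells 1 of the 44 differed, whereas 2.91% of all kept probes were higher and 3.13% lower in wild-type cells. *Cdkn2a*, the locus of the Mdm2 inhibitor Arf and of the cell cycle inhibitor p16, was at 11.11 and 11.64 in wild-type and at 14.72 and 14.94 in Trp53-/- cells. It was thus 10.99-fold higher in Trp53-/- cells (log2 difference, wild-type minus Trp53-/-, of -3.46, q = 0.00745), the opposite direction to *Ccng1*. Which product of the locus the probe reads was not examined. With 1 of the Trp53-/- arrays left out no regulator passed in untreated cells, whereas 4 were higher and 8 lower in wild-type cells without wild-type replicate 1, and 9 and 6 without wild-type replicate 2.

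**Figure D3:**
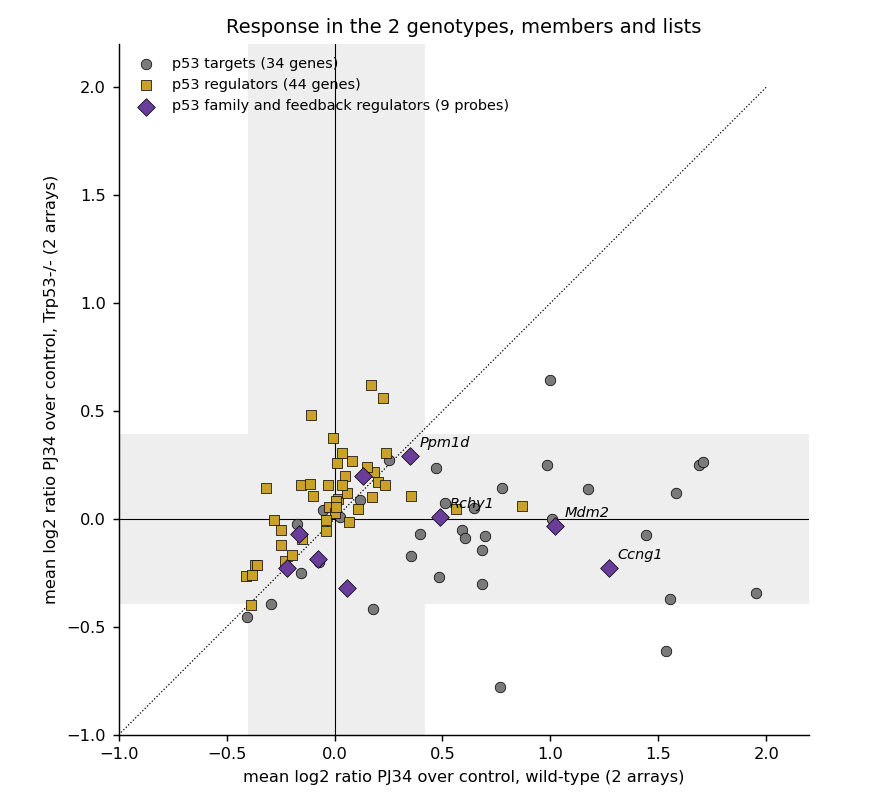
Mean log2 ratio of PJ34 over control in wild-type (x axis) and in Trp53-/- NSPCs (y axis) for the 9 member probes (diamonds), 44 regulators of p53 (squares) and 34 target genes of p53 (circles), with the dotted line at equal response. Grey bands run from the 5th to the 95th percentile of all kept probes, -0.40 to 0.41 in wild-type and -0.39 to 0.39 in Trp53-/- cells. *Mdm2* and *Ccng1* lie to the right of the band among targets, whereas *Ppm1d* lies close to the line.

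Target genes of p53 outside the members were listed for comparison, whether or not they also act on p53, and 34 of 35 had a kept probe. In wild-type cells 24 rose and 2 fell, against 12.3% and 10.4% of all kept probes, with a median log2 ratio of 0.62. The 5 largest were *Perp* with 1.95, *Trp53inp1* with 1.71, *Pmaip1* with 1.69, *Tnfrsf10b* with 1.58 and *Fas* with 1.55, all known for roles in apoptosis. In Trp53-/- cells 1 of the 34 rose and 7 fell, against 12.0% and 9.68% of all kept probes, with a median of -0.06. The 5 largest changes were those of *Psrc1* (-0.78), the kinase gene *Plk2* (0.64), *Cdkn1a* (-0.61), *Fdxr* (-0.45) and *Ckap2* (-0.42). Of these, *Psrc1* passed with either Trp53-/- array left out. *Plk2* was at 0.25 (q = 0.189) without replicate 1 and at 1.03 without replicate 2, and *Fdxr* did not pass without replicate 1 (-0.38, q = 0.0743). Without replicate 2, *Cdkn1a* (-0.48, q = 0.086) and *Ckap2* (-0.25, q = 0.308) did not pass. None of the 34 rose and 4 fell without replicate 1, and 1 rose and 3 fell without replicate 2. The response was larger in wild-type cells for 17 and smaller for none, against 1.11% and 0.355% of all kept probes. In untreated cells 16 were higher in wild-type cells and none lower, against 2.91% and 3.13% of all kept probes. The median difference was 0.83. *Cdkn1a*, the gene of the cell cycle inhibitor p21, was 6.51-fold higher in untreated wild-type cells. With either Trp53-/- array left out, none of the 34 passed in untreated cells, and with median centring 22 of the 34 rose in Trp53-/- cells and none fell.

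Of 7 relatives of the members that are not themselves known for feedback on p53, none passed in wild-type cells and 1 in Trp53-/- cells. Among all kept probes, 12.3% rose and 10.4% fell in wild-type cells, and 12.0% and 9.68% in Trp53-/- cells. *Ccng2* and *Ccni*, the other genes of the cyclin G and I group, had mean log2 ratios of 0.09 and -0.21 in wild-type cells and 0.00 and -0.37 in Trp53-/- cells, of which the last passed (q = 0.0119). The phosphatase genes *Ppm1a*, *Ppm1b*, *Ppm1f*, *Ppm1g* and *Ppm1k*, of the same family as *Ppm1d*, had means between -0.14 and 0.20 in wild-type and between -0.23 and 0.14 in Trp53-/- cells, and none passed. No response of the 7 relatives differed between the genotypes past the threshold. In untreated cells *Ppm1b* was lower in wild-type cells, with a difference of -0.79 (q = 0.0427).

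**Figure D4:**
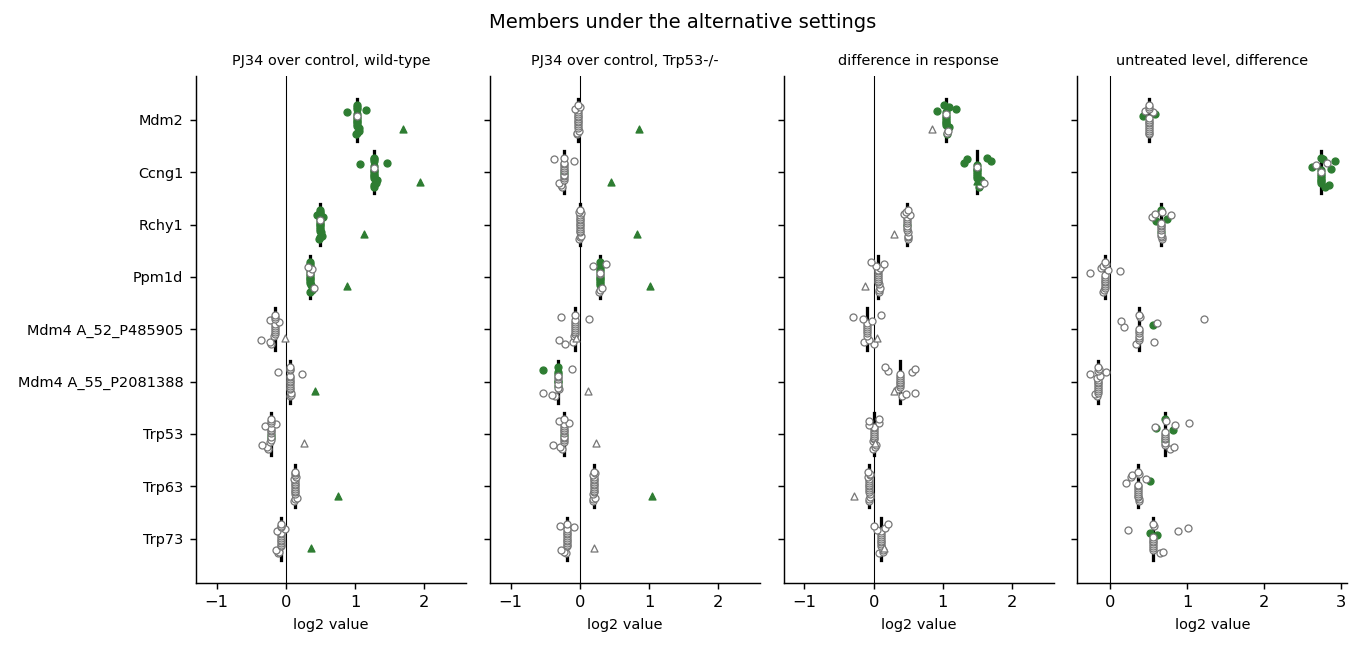
Log2 value of each kept member probe (rows) in the 4 comparisons (panels) under the alternative settings, with the reported value as a black line, green symbols where q was below 0.05, open symbols where it was not, and triangles for median centring in place of loess. *Ccng1* and *Mdm2* stay to the right of 0 in the response of wild-type cells and in the difference, and in both genotypes median centring lies to the right of the reported value for most members.

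Median centring in place of loess moved the median of all kept probes to 0.42 in wild-type and to 0.57 in Trp53-/- cells, and 1385 probes then rose and 3 fell by more than 2-fold in wild-type cells (71 and 47 with loess), and 4020 rose and 4 fell in Trp53-/- cells (19 and 67 with loess). Under it *Mdm2* had 1.70 in wild-type and 0.85 in Trp53-/- cells, and *Ccng1* 1.94 and 0.45, so the value of *Ccng1* in Trp53-/- cells was below the median of all probes and that of *Mdm2* above it. *Trp53* and *Trp73*, which were slightly below the control with loess, were above it under this setting in both genotypes. The differences between the genotypes depended less on it, with 1.49 for *Ccng1* (q = 0.00653), 0.84 for *Mdm2* (q = 0.228) and a median of -0.14 over all kept probes.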

How the data were processed

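The samples were 4 two-colour arrays (Agilent, SurePrint G3 design for mouse genes), 2 of wild-type and 2 of Trp53-/- NSPCs. The authors extracted them with Feature Extraction (version 10.7.3.1 in the submitters' processing notes). The intensity values that the authors deposited, the mean of each spot and the median of its local background, were the starting point. The deposited log10 ratios of the same software and its processed intensity served as alternatives. A table with 4 numbered columns was not used, because their names fit no array.

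limma 3.58.1 in R 4.3.3 was used for normexp background correction (offset 50) and loess within arrays. Outlier spots were left out and spots of a probe averaged. A mean per genotype was fitted over all 4 arrays and moderated by eBayes (10.52 degrees of freedom, 6.179 for untreated levels), with Storey's q over all kept probes. Untreated levels are log2 intensities of the Cy3 channel after quantile normalization of the mean intensities. p-values rest on the spread between the 2 arrays of a genotype, pooled over both genotypes and moderated with that of all kept probes. Fits were tested on simulated data with 100 probes changed by 1.5 on the log2 scale. They recovered 100 for the wild-type response, 100 for the difference and 98 for untreated levels. False calls beside these numbered 22, 20 and 26.

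RefSeq accessions gave the symbol of 47.2% of probes, and the array's annotation that of the rest. Positions are those of the files (mm9), and promoters are from RefSeq (GRCm38.p6). Each array was on its own slide, so slides could not be used as a block. Replicates with the same number did not deviate together (correlation -0.169 for log2 ratios and 0.0743 for control levels, over 2 pairs).

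The members and lists were chosen with earlier results of these data known. Named are all member probes, all relatives, the nearest 3 genes of 3 members, the 3 largest rises and decreases past the threshold among regulators per genotype and for the difference, and the 5 largest among targets per genotype. *Cdkn2a* in untreated cells, *Cdkn1a* in untreated cells and *Ppm1b* were named after their values were seen. The same holds for *Rbfox3*, *Msi1*, *Kdr* and the single astrocyte markers in untreated cells. The result of 1 list of cell type markers is not reported here.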

Additional observations from a re-analysis of the deposited data

Results flagged for a closer look

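The response to PJ34 differed between the genotypes for the probe of *Ccng1*, by 1.50 on the log2 scale (wild-type minus Trp53-/-, limma, q = 0.00204), and for that of *Mdm2*, by 1.05 (q = 0.00575). Both were tested by the difference of the genotype means over 4 arrays. Both were higher with PJ34 on 2 of 2 wild-type arrays. On the Trp53-/- arrays *Ccng1* was lower with PJ34 on 2 of 2, and *Mdm2* on 1 of 2.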

How the results depend on the processing

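With 2 arrays a genotype, 1 array can decide a call. Over all alternatives tried, the wild-type rises of *Ccng1*, *Mdm2* and *Rchy1* passed in 17 of 18 each and that of *Ppm1d* in 14. The rise of *Ppm1d* in Trp53-/- cells passed in 11 of 18. The difference between genotypes passed in 14 of 17 for *Ccng1* and in 13 of 17 for *Mdm2*. Of the 9 member probes, 4 passed in wild-type cells, 1 in Trp53-/- cells, 2 in the difference and 1 in untreated cells. With limma's treat against a 2-fold change these numbers were 0, 0, 0 and 0. Median centring gave 7 in wild-type cells, 5 in Trp53-/- cells and 1 in the difference. In Trp53-/- cells the number was 0 with no background correction, with an offset of 16, with the deposited log ratios and with the Benjamini-Hochberg adjustment, and 2 with a stricter filter, with a variance trend or with each genotype fitted alone. In the difference it was 0 with an offset of 16 and with the deposited log ratios. In untreated cells it was 3 with a separate channel fit.

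Leaving out 1 array at a time gave 3 to 4 in wild-type cells, 0 to 2 in Trp53-/- cells (0 without Trp53-/- replicate 2), 2 in the difference, and 0 to 7 in untreated cells (0 without either Trp53-/- array, 5 without wild-type replicate 1 and 7 without wild-type replicate 2). The numbers of replicates do not pair the arrays. With the replicate block 3 passed in untreated cells and the other 3 numbers were unchanged. With the crossed pairing, chosen after seeing the data, 5, 4, 3 and 1 passed.

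Signs turned mainly for values near 0. With no background correction the value was -0.0138 for *Rchy1* in Trp53-/- cells, and the difference was 0.0036 for *Mdm4* (A_52_P485905) and -0.0019 for *Trp53*. With an offset of 16 *Rchy1* had -0.0031 in Trp53-/- cells, and with scaling between arrays the difference of *Trp53* was -0.0026. With median centring, which moved all probes up, *Trp73* had 0.36 and *Trp53* 0.26 in wild-type cells, with 0.29 for *Smyd2*, 0.26 for *Cdkn2a* and 0.23 for *Gnl3*. In Trp53-/- cells it gave 0.21 for *Trp73*, 0.45 for *Ccng1*, 0.24 for *Trp53*, 0.85 for *Mdm2*, 0.125 for *Mdm4* (A_55_P2081388), 0.73 for *Smyd2*, 0.68 for *Cdkn2a*, 0.0645 for *Cdkn1a*, 0.36 for *Fdxr* and 0.35 for *Ckap2*, and differences of 0.0428 for *Mdm4* (A_52_P485905) and -0.13 for *Ppm1d*. The cause was not tested.

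With arrays left out, *Mdm4* (A_55_P2081388) ran from -0.108 to 0.23 in wild-type cells. In Trp53-/- cells *Rchy1* ran from -0.0079 to 0.0238, *Mdm2* from -0.0704 to 0.0077 and *Mdm4* (A_52_P485905) from -0.277 to 0.136. The difference of that probe ran from -0.3009 to 0.112, that of *Trp53* from -0.069 to 0.0795 and that of *Ppm1d* from -0.0352 to 0.1553, and the untreated difference of *Ppm1d* from -0.2647 to 0.1236.

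Over all kept probes, the calls past q and 2-fold in the difference (108 higher and 6 lower in wild-type cells) numbered 34 and 2 with an offset of 16, 0 with the deposited log ratios, 41 and 2 with median centring, 185 and 42 without Trp53-/- replicate 1, and 1 and 0 with treat. The deposited log ratios gave 448 and 217 in wild-type cells (71 and 47 with loess) and 355 and 124 in Trp53-/- cells (19 and 67). In untreated cells (446 and 451) leaving out an array gave 0 to 992 higher and 0 to 867 lower. Of the 34 target genes, 17 differed in response, against 6 with an offset of 16, 9 with median centring, and 0 with treat and with the deposited log ratios.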
